A study of Mus musculus with 6 samples.

Results

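Loss of 1 of the 2 alleles of H3f3b was examined in whole adult mouse testis by comparing 2 heterozygous mice (HET, genotype H3f3b WT/-) with 2 wild-type littermates (WT, genotype H3f3b WT/WT). These are 4 of the 6 arrays of the series, chosen by genotype label alone. The other 2 arrays are homozygous knockouts (KO, genotype H3f3b -/-), which were normalized with them and entered the estimate of spread. All mice were of strain C57BL6J, and each of 2 litters contributed 1 mouse of each genotype. The deletion is constitutive: floxed H3f3b mice were mated to Zp3Cre mice, whose Cre is active in oocytes, and heterozygous offspring were intercrossed. It is therefore carried by somatic cells and by germ cells before the meiotic divisions alike. After those divisions, each haploid cell of a HET mouse holds either the intact or the deleted allele. Total RNA came from a single testis per mouse and was hybridised to Illumina bead arrays. The labels conflict on age, with an age tag of E12.5 but 8 weeks in the source names and the design. The age of 8 weeks is used here, since the spermatid gene Tnp1 had a log2 normalized signal between 14.26 and 14.42 on the 6 arrays.

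H3f3b and its paralog H3f3a encode the same protein, the histone variant H3.3. Unlike the replication-dependent histones H3.1 and H3.2, which are made in S phase from clustered genes, H3.3 is made throughout the cell cycle and is deposited into chromatin outside replication. HIRA with its partner ubinuclein, and DAXX with ATRX, are chaperones that place it. In the testis H3.3 is incorporated during meiotic sex chromosome inactivation and is present in spermatids before histones give way to transition proteins and protamines.

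The sequences before the transcription starts of the H3 genes that the results turn on are shown here because both H3f3b and a pair of replication-dependent H3 genes had lower signal in HET. Each run is the 250 bases upstream of the start, 5′ to 3′ on the gene's strand, from RefSeq annotation of GRCm38.p6, and all 4 genes were found in that table. Capitals mark matches, on either strand, to the letters CCAAT, to TATAAA or to ATGCAAAT, and no match overlapped another.
H3f3b, chr11:116024505-116024754, minus strand: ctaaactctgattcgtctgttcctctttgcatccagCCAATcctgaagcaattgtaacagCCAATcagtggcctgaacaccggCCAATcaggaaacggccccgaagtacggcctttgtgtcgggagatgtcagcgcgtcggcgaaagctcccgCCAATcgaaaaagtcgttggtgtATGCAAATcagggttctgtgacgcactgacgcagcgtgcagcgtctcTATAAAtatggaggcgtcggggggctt
H3f3a, chr1:180813606-180813855, minus strand: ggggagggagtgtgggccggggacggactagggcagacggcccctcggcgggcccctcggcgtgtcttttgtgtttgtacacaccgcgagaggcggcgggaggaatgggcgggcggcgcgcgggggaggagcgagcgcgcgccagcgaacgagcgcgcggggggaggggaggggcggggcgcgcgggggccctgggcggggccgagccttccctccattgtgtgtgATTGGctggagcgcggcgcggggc
H3c13, chr3:96268404-96268653, plus strand: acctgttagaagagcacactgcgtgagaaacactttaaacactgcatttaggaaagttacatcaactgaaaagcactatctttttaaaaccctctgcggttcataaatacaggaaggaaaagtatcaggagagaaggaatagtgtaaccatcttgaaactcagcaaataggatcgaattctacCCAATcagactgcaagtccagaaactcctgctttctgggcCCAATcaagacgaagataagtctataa
H3c14, chr3:96246435-96246684, plus strand: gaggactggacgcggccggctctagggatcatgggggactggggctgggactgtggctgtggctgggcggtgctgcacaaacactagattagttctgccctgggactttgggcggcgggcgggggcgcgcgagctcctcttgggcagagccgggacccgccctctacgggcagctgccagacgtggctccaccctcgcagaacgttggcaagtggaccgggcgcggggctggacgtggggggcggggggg
The H3f3b window holds 4 CCAAT matches, 1 TATAAA match and 1 ATGCAAAT match. The H3f3a window holds 1 CCAAT match and has a GC content of 77.2%, against 54.0% for H3f3b. The H3c13 window holds 2 CCAAT matches, and the H3c14 window holds none of the 3 motifs. Among 32851 RefSeq promoter windows of this length, 33.85% hold CCAAT, 12.4% hold TATAAA and 1.60% hold ATGCAAAT. A match describes the letters in the window and is not evidence of a bound factor.

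Values of single mice are given for litter 1 first and litter 2 second throughout. The arrays were of similar brightness, with summed deposited signals between 15427284 (HET, litter 2) and 17674449 (HET, litter 1) and between 19809 and 20707 probes detected at a detection p-value under 0.05 on the 4 arrays. Pearson correlations of normalized signal were 0.9935 between the HET arrays, 0.9928 between the WT arrays and 0.9908 to 0.9925 between a HET and a WT array. Markers of spermatids (Prm1, Tnp1, Acrv1), spermatocytes (Ldhc), Sertoli cells (Sox9) and Leydig cells (Cyp17a1) were detected on every array, while the 1 probe for Sycp3, a meiotic marker, was detected on none.

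Individual arrays stood apart from the rest for small gene groups, and these groups, chosen after their values were seen, touch the HET results below. On the HET array of litter 2, seminal vesicle secretory genes were high. Svs4, a seminal vesicle secretory protein, had a log2 normalized signal of 9.99 there, against 5.77 and 5.79 in WT, 5.52 in the HET mouse of litter 1 and 5.61 and 5.92 in KO. Svs5 read 9.64 on that array and 7.97 to 8.19 on the other HET array and the WT arrays. The summed deposited signal of the 9 seminal vesicle genes was 2581 on it and 1027 to 1160 on the others, and 7 of the 9 were detected against 3 or 4. Svs4 had the largest mean difference of any gene between HET and WT (1.98 on the log2 scale), with a difference of -0.24 in litter 1 and 4.204 in litter 2.

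On the HET array of litter 1, antigen presentation and interferon-gamma response genes were high and glandular kallikreins low. Gbp2, an interferon-induced GTPase, read 6.78 there and 5.47 to 5.70 on the other 5 arrays. Cd74, the invariant chain of MHC class II, read 8.28 there, 7.43 and 7.12 in WT and 6.86 in the other HET mouse. The 5 kallikrein genes on the array summed to 6996, against 9711 to 10244 on the other HET array and the WT arrays.

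On the WT array of litter 2, probes for 18S ribosomal RNA were low. The probe 18S_rRNA_X00686_849 read 13.47 in the WT mouse of litter 1, 12.58 in that of litter 2, 14.31 and 14.11 in HET, with KO at 13.81 and 13.75. Other probes were also lowest on that array, among them Pik3cd, a catalytic subunit of phosphoinositide 3-kinase, at 4.24 against 7.20 in the other WT mouse and 7.22 and 7.15 in HET. The part of seminal vesicle RNA, of immune cells or of ribosomal RNA content in any gene's difference was not tested.

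**Figure D1:**
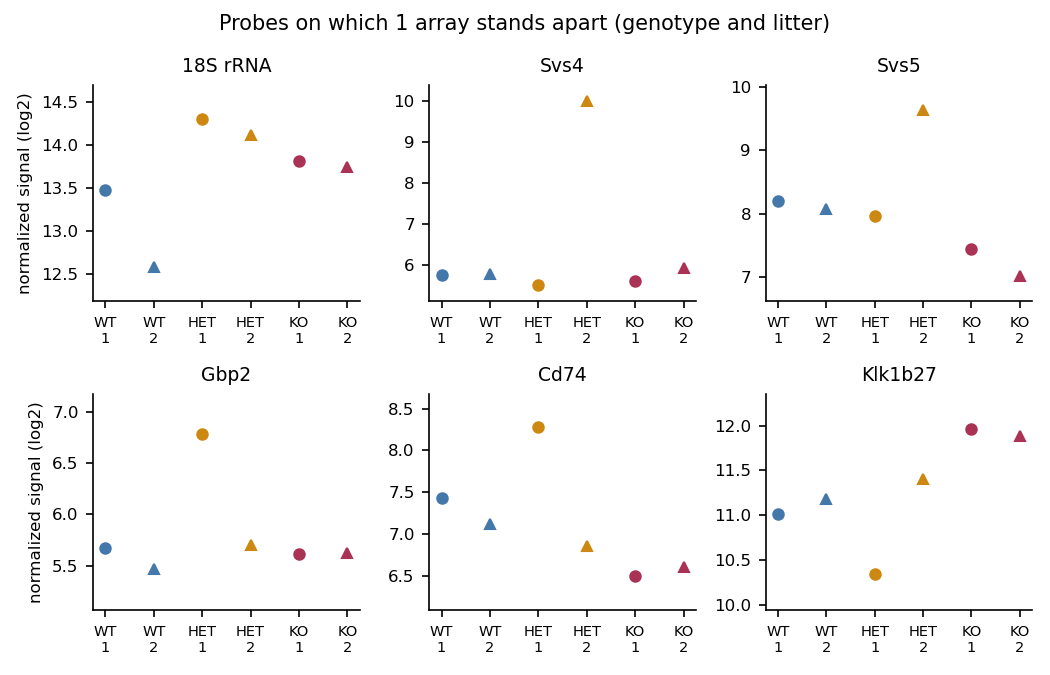
Log2 normalized signal (vertical axis) of 6 probes on each of the 6 arrays (horizontal axis: genotype and litter, circles for litter 1, triangles for litter 2). 18S rRNA is lowest at 12.58 in the WT mouse of litter 2, Svs4 reaches 9.99 only in the HET mouse of litter 2, and Gbp2 reaches 6.78 only in the HET mouse of litter 1.

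The level of H3f3b in HET testis was between those of WT and KO and nearer to WT on the log2 scale. The 2 WT testes gave 11.78 and 11.73 on the log2 scale, the 2 HET testes 11.10 and 10.96, and the 2 KO testes 4.43 and 4.28. Both HET arrays lay below both WT arrays, with log2 differences from the WT littermate of -0.69 in litter 1 and -0.77 in litter 2. This left 62.2% and 58.8% of the level of the WT littermate. Taken from the deposited signals with the KO littermate's signal subtracted, and with no scaling between arrays, the shares were 61.4% and 50.6%.

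The mean log2 difference in H3f3b was -0.73 (SE 0.135, 95% interval -1.03 to -0.42), and the group SDs were 0.04 in WT and 0.10 in HET. Its unadjusted p was 0.000401 and its adjusted p 0.3895 (limma, adjusted over 19668 probes), so the gene carrying the deletion did not pass the threshold of 0.05. A second, dim probe deposited under an older name of the gene, 9430068D06Rik, read 4.72 and 5.24 in WT and 4.36 and 4.39 in HET, where it was not well above background. The position of these probes relative to the deletion is not given in the sources used here. Without 1 array in turn the difference ranged from -0.80 to -0.66.

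H3f3a, the paralog encoding the same protein, differed little between HET and WT. Its brightest probe gave 12.13 and 12.15 in WT and 12.13 and 12.05 in HET. The log2 difference was -0.05 (95% interval -0.34 to 0.23, limma adjusted p = 0.936), with group SDs of 0.020 in WT and 0.055 in HET. The other 2 H3f3a probes differed by -0.08 and 0.10.

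**Figure D2:**
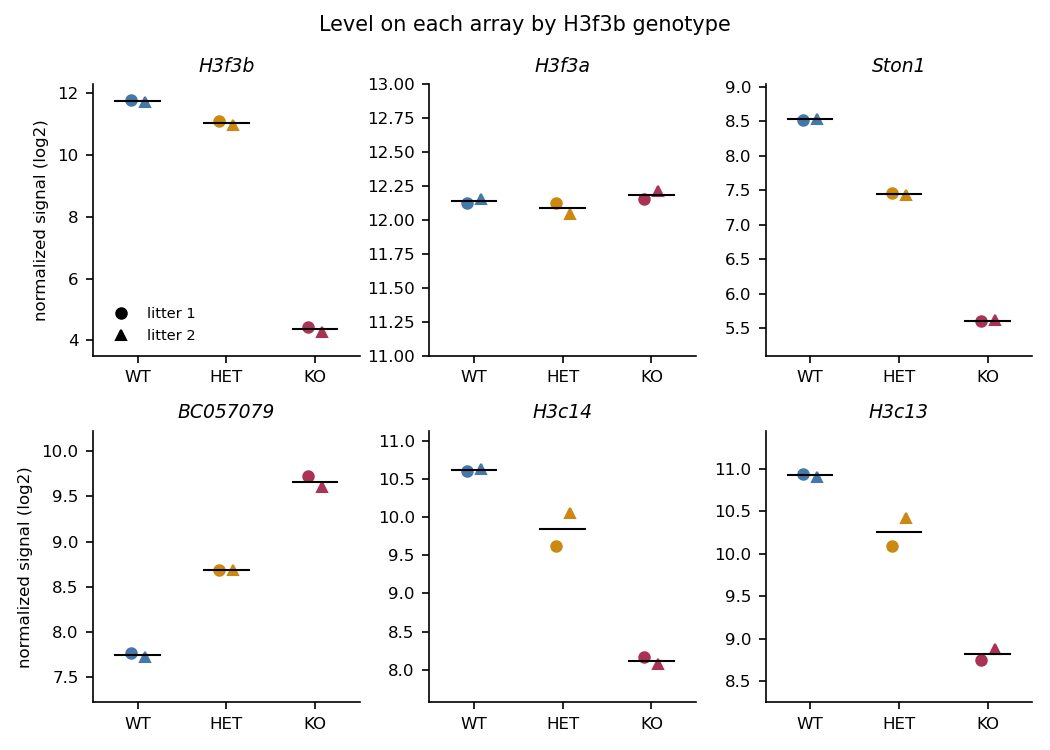
Log2 normalized signal (vertical axes, scaled per gene) of 6 genes in WT, HET and KO testis, with circles for litter 1, triangles for litter 2 and a bar at the mean of 2 mice. H3f3b, Ston1, H3c14 and H3c13 in HET lie between WT and KO and below both WT mice, BC057079 lies between them and above both WT mice, and H3f3a stays between 12.05 and 12.21 in all 6.

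The genes whose products make, carry and place H3.3 showed no called difference. Of 17 such genes 13 were measured, and 1 of them, H3f3b itself, had an unadjusted p under 0.05. Over all 13968 measured genes, 4.07% were lower and 4.69% higher in HET at that level, and 0 of 13968 were called after adjustment. Both HET arrays lay below both WT arrays for 5 of the 13, against 18.6% of all genes. Ubn2, a ubinuclein of the HIRA complex, read 6.06 and 6.15 in WT and 5.92 and 5.70 in HET. Asf1a, a chaperone that hands H3-H4 dimers to HIRA, read 5.55 and 5.47 in WT and 5.34 and 5.15 in HET. Their differences of -0.30 and -0.26 had limma adjusted p-values of 0.571 and 0.586. The log2 differences of the chaperone genes Hira (0.10), Daxx (0.07), Chaf1a (0.07) and Asf1b (-0.05) were smaller still.

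Of the replication-dependent H3 genes, 3 had lower signal in HET at an unadjusted p under 0.05, and none passed adjustment. H3c14 (deposited as Hist2h3c1) read 10.61 and 10.63 in WT, 9.62 and 10.06 in HET, with KO at 8.17 and 8.07. Every HET value was below both WT values and above both KO values. The HET minus WT difference was -0.78 (SE 0.163, 95% interval -1.15 to -0.41), with an unadjusted p of 0.000938 and an adjusted p of 0.411 (limma). H3c13 (deposited as Hist2h3b) read 10.94 and 10.91 in WT, 10.09 and 10.42 in HET, with KO at 8.75 and 8.88. Its difference was -0.67 (SE 0.15, limma adjusted p = 0.429). H3c10 (deposited as Hist1h3h), in another histone cluster, read 10.38 and 10.43 in WT and 9.98 and 10.09 in HET, a difference of -0.37 (limma adjusted p = 0.474). For comparison, the KO minus WT differences were -2.51, -2.11 and -1.07. The HET and KO differences share the WT arrays, so they are given side by side and not as independent measurements.

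Of 61 replication-dependent histone genes, 44 were measured, and their median difference was -0.07, against 0.01 over all genes. Both HET arrays were below both WT arrays for 13 of the 44 and above for 5, against 18.6% and 22.0% of all genes. An unadjusted p under 0.05 was reached by 4 of the 44, all of them lower. Of all genes, 4.07% were lower at that level. A split by histone, made after the values were seen, gave unequal medians. All 8 measured H3 genes were lower in HET, 6 of them with both HET arrays below both WT arrays, with a median of -0.21 and a range of -0.78 to -0.09. The 13 H2A genes had a median of 0.13, the 12 H2B genes -0.09, the 9 H4 genes -0.03 and the 2 H1 genes -0.01. H3c6, H3c2 and H3c4, with differences of -0.19, -0.21 and -0.21, had unadjusted p-values between 0.1685 and 0.193. The median of all 44 genes was 0.01 without the WT array of litter 2, and -0.13 at its lowest with another array left out.

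Histone genes are near-identical to one another, and the files hold no probe sequences, so the copies a probe reads cannot be told apart here. The other 2 H3c14 probes did not follow the bright one. The one with a WT mean of 6.72 differed by -0.12. The one with a WT mean of 4.47 went the other way, at 4.45 and 4.48 in WT and 4.73 and 4.85 in HET. It was not well above background in WT. Under other settings the HET minus WT difference of H3c14 was as small as -0.19.

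Histone variants and spermatid nuclear proteins differed little. The 7 measured replication-independent variants other than H3.3 had a median of 0.06 and none reached an unadjusted p of 0.05. Cenpa, the centromeric H3 variant, read 8.29 and 8.47 in WT and 8.65 and 8.67 in HET, a difference of 0.28 (95% interval -0.10 to 0.65, limma adjusted p = 0.642). The 9 measured testis histones, transition proteins and protamines had a median of -0.07 and lay between -0.19 and 0.13. Tnp2, a transition protein that replaces histones in spermatids, read 11.01 and 10.90 in WT and 10.74 and 10.79 in HET (-0.19, 95% interval -0.52 to 0.14). The corresponding value for Tnp1 was -0.10, with an interval of -0.39 to 0.18. The 20 measured factors of histone-to-protamine exchange had a median of 0.03.

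Across the transcriptome, differences between HET and WT were small and none was called. Of 19668 probes tested, 0 (0%) had an adjusted p under 0.05 in limma, and the smallest adjusted p was 0.1905. At an unadjusted, two-sided p under 0.05 there were 1830 probes (9.30%), of which 938 were higher in HET (4.77%) and 892 lower (4.54%). Other settings called 0 to 17 probes. The quartiles of the difference over genes were -0.12 and 0.14, while the median half-width of its 95% interval was 0.34, so differences of that size were not detectable with 2 mice a group. Differences of at least 1.5-fold were found for 77 genes higher and 63 lower, and of at least 2-fold for 10 and 2.

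The 2 litters give HET minus WT differences that share no array. Across probes these correlated with a Pearson coefficient of 0.21 and a Spearman coefficient of 0.21, as a description over probes that are not independent replicates, and 57.3% had the same sign. The standard deviation of the difference over probes was 0.27 in litter 1 and 0.28 in litter 2. Differences between mice of the same genotype were as wide, with a standard deviation of 0.26 between the WT mice and 0.25 between the HET mice. Of 682 probes that differed at least 1.5-fold in litter 1, 412 (60.4%) had the same sign in litter 2, and of 860 in litter 2, 598 (69.5%) had it in litter 1. Both litters passed 1.5-fold for 84 probes, 67 of them with the same sign.

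**Figure D3:**
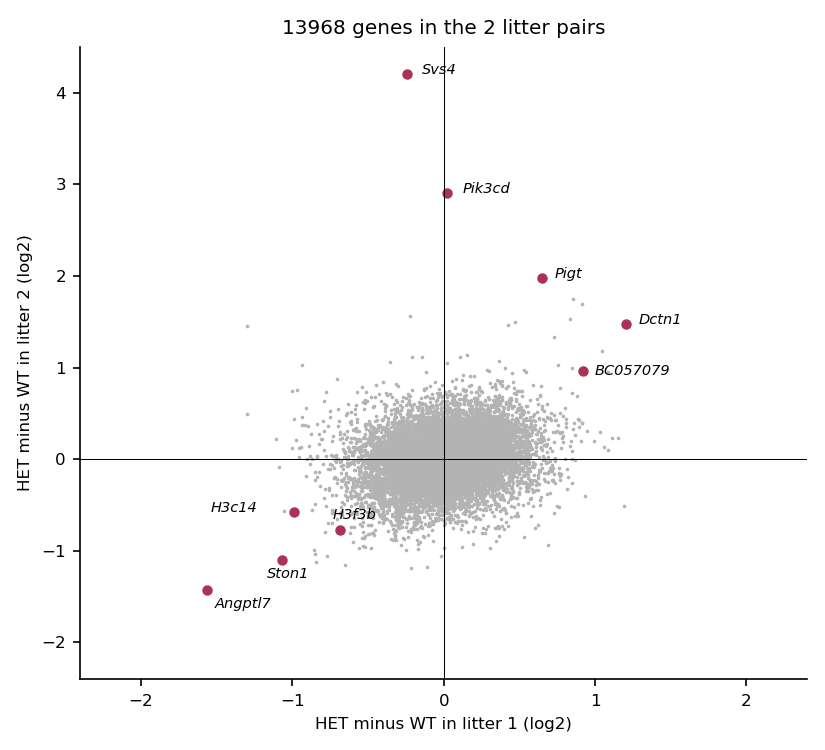
HET minus WT difference on the log2 scale in litter 1 (horizontal axis) against litter 2 (vertical axis), 1 grey point per gene, with 9 genes marked. Ston1, Angptl7, H3c14 and H3f3b are low in both pairs, BC057079 and Dctn1 high in both, and Svs4 and Pik3cd high only in litter 2.

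At gene level, 21 genes were at least 1.5-fold higher in both litters, 21 at least 1.5-fold lower in both, and 12 went opposite ways. Of the first 2 sets, 23 are among the genes described by the naming rule. Others, picked after their values were seen, include Ubr4, a large E3 ubiquitin ligase, at 6.86 and 6.59 in WT and 7.61 and 7.62 in HET. Herc1, a giant HECT-domain protein, read 5.34 and 5.36 in WT and 5.98 and 6.07 in HET. On the lower side Mmp2, a matrix metalloproteinase, read 6.15 and 6.02 in WT and 5.45 and 5.37 in HET. Cldn10, a tight junction claudin, read 5.51 and 5.30 in WT and 4.77 and 4.71 in HET. Ubr4, Herc1 and Cldn10 had 2, 3 and 2 measured probes, and only the brightest of each is given here. Of the 12 opposite genes, 6 were predicted genes, such as LOC386144, that read highest on the WT array of litter 1 and lowest on that of litter 2. LOC386144 gave 8.73 and 5.67 in WT and 7.43 and 7.13 in HET.

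The gene with the smallest p was Ston1 (deposited as 4921524J06Rik), which encodes a stonin related to endocytic adaptors. Its log2 signal was 8.52 and 8.53 in WT, 7.46 and 7.43 in HET, with KO at 5.60 and 5.62. The 3 genotypes did not overlap, and the SD between mice was 0.01 in WT and 0.02 in HET. The HET minus WT difference was -1.08 (SE 0.126, 95% interval -1.37 to -0.80), a level 0.472 times that of WT, with an unadjusted p of 1.04e-05 and an adjusted p of 0.1905 (limma). Its other probe gave 7.85 and 7.90 in WT and 6.72 and 6.98 in HET, a difference of -1.02. Ston1 passed the adjusted threshold under 5 other settings of background, scaling or variance, where its difference lay between -1.10 and -0.79. Leaving out any 1 array kept it between -1.09 and -1.07. In KO it fell by 2.92 on the log2 scale against WT (limma adjusted p = 1.66e-05).

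BC057079, for which the files give only a clone name, was the counterpart among higher genes. It read 7.76 and 7.72 in WT, 8.68 and 8.69 in HET, with KO at 9.72 and 9.61, again with no overlap between genotypes. The difference was 0.94 (SE 0.129, 95% interval 0.65 to 1.23, limma adjusted p = 0.1905), or 1.92-fold, and the KO difference was 1.92 on the log2 scale. It passed the threshold without background correction (0.75), with an offset of 50 (0.85), with the authors' scaled values (0.77) and with an intensity trend (0.94).

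Of the other lower genes, Pmpca and Prrt4 were dim. Pmpca, the alpha subunit of the mitochondrial processing peptidase, read 5.74 and 5.94 in WT and 4.90 and 4.83 in HET (-0.98, limma adjusted p = 0.1905). Prrt4, a proline-rich transmembrane protein, read 5.53 and 5.68 in WT and 4.68 and 4.65 in HET (-0.94, limma adjusted p = 0.1905), and was well above background on 1 of the 2 HET arrays. The KO minus WT difference of Pmpca was -0.87, and Prrt4 was not well above background on either KO array. Under other settings the HET minus WT difference was as small as -0.27 for Pmpca and -0.23 for Prrt4.

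Brighter genes of the lower set included Tmod2, Cfl1 and Nectin1, and none passed adjustment. Tmod2, a tropomodulin that caps the pointed ends of actin filaments, read 8.90 and 9.20 in WT and 8.04 and 8.21 in HET (-0.92, limma adjusted p = 0.281). Its dimmer probe was higher in HET by 0.15, so the probes disagree. Cfl1, the actin-severing protein cofilin, read 6.73 and 6.84 in WT and 6.20 and 5.90 in HET (-0.74, limma adjusted p = 0.411). Its KO minus WT difference was 0.17. Nectin1 (deposited as Pvrl1), a cell adhesion molecule, read 7.36 and 7.45 in WT and 6.59 and 6.39 in HET (-0.91), with a second probe at -0.23.

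Sly, a multicopy Y-linked spermatid gene whose protein represses the sex chromosomes after meiosis, read 7.77 and 7.97 in WT and 6.98 and 7.17 in HET. The difference was -0.79 (95% interval -1.12 to -0.47, limma adjusted p = 0.3895). In KO it read 7.40 and 7.52, between HET and WT. Xmr, an X-linked relative, read 6.75 and 6.50 in WT and 5.90 and 6.27 in HET (-0.54, limma adjusted p = 0.477, and -0.35 without the HET array of litter 1). These were the only 2 of 14 measured multicopy sex-linked genes with an unadjusted p under 0.05, and the list median was 0.03. Of all genes, 4.07% were lower at that level. Copies of these families may share probes.

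Hoxc9, a homeobox gene, read 8.00 and 8.03 in WT and 7.40 and 7.12 in HET (-0.75, limma adjusted p = 0.3895). Hox genes as a list were not lower, with a median of 0.08 over 12 measured. Hoxa5 had a mean at least 1.31-fold higher in HET, where it read 5.25 and 4.89. WT at 4.54 and 4.39 was not well above background (limma adjusted p = 0.434). Angptl7, a secreted angiopoietin-like protein, had the largest mean difference among genes lower in both litters. It read 7.83 and 6.95 in WT and 6.26 and 5.53 in HET, a difference of -1.50 (SE 0.374, limma adjusted p = 0.434). Both HET mice were below both WT mice, and in each genotype litter 2 was below litter 1. Its second probe differed by -0.99.

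Finally, 3 uncharacterised transcripts completed the lower set of 12. LOC244595 read 5.80 and 6.20 in WT and 5.24 and 5.23 in HET (-0.77). LOC380846 read 5.44 and 5.57 in WT and 4.92 and 4.73 in HET (-0.68). The limma adjusted p was 0.411 for both. 1700045I11Rik read 5.23 and 5.06 in WT and was not well above background in HET (4.49 and 4.36), so its level was at least 1.42-fold lower there (limma adjusted p = 0.3895).

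Several of the genes higher in HET were also the lowest on the WT array of litter 2, as the 18S ribosomal RNA probes were. LOC385068, a predicted gene, read 9.62 and 9.08 in WT, 10.54 and 10.78 in HET, with KO at 10.08 and 10.14. Its difference was 1.31 (SE 0.188, limma adjusted p = 0.1905), and 1.02 without the WT array of litter 2. It passed adjustment with median scaling, an offset of 50, the authors' scaled values and an intensity trend. LOC385086, another predicted gene, read 12.14 and 11.48 in WT and 12.99 and 13.23 in HET. Its difference was 1.30, and 0.98 without that WT array. The probe 18S_rRNA_X00686_849 differed by 1.18 with all arrays (limma adjusted p = 0.411) and by 0.74 without that array. In all 3, HET was above KO and both HET mice were above both WT mice.

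Pigt, a subunit of the complex that attaches GPI anchors to proteins, also depended on that array. Its brightest probe read 12.25 and 10.90 in WT, 12.90 and 12.88 in HET, with KO at 12.36 and 12.24. The difference was 1.32 (SE 0.339, limma adjusted p = 0.434), 0.65 without the WT array of litter 2, and 1.99 without that of litter 1, where it passed the adjusted threshold (limma adjusted p = 0.035, against 0.434 with all arrays). The other 2 Pigt probes were not lowest on that array. They read 6.78 and 6.89 in WT against 7.64 and 7.37 in HET, and 8.42 and 8.82 in WT against 9.46 and 9.22 in HET, with differences of 0.67 and 0.72.

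Dctn1, the large subunit of the dynein activator dynactin, read 6.03 and 5.58 in WT, 7.23 and 7.05 in HET, with KO at 6.65 and 5.96. The difference of 1.34 (95% interval 0.81 to 1.86, limma adjusted p = 0.3895) was 1.12 without the WT array of litter 2. Hic2, a zinc finger transcriptional repressor, read 4.97 and 4.63 in WT and 6.05 and 5.58 in HET (1.02, limma adjusted p = 0.411), and was well above background on 1 of the 2 WT arrays. In both genes the 2 HET mice were above the 2 WT mice.

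Smaller differences, with less distance between the WT mice, made up the rest of the higher set. Dcp1a, an mRNA decapping cofactor, read 6.69 and 6.61 in WT and 7.57 and 7.30 in HET (0.785, limma adjusted p = 0.3895), but its other 2 probes differed by -0.08 and -0.15. Kifc5a, a kinesin of the minus-end-directed family with near-identical relatives, read 6.24 and 6.10 in WT and 7.09 and 6.82 in HET (0.78, limma adjusted p = 0.3895). Adcy6, an adenylyl cyclase, read 5.98 and 6.02 in WT and 6.78 and 6.59 in HET (0.68, limma adjusted p = 0.411).

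For 3 further genes both WT arrays were not well above background, so only a bound on the fold between means is given. Gpd1, the cytosolic glycerol-3-phosphate dehydrogenase, was at least 1.57-fold higher in HET, with WT at 4.49 and 4.63 and HET at 5.26 and 5.41 (limma adjusted p = 0.3895). Zfp335, a zinc finger protein, was at least 1.41-fold higher, with 4.43 and 4.47 in WT and 5.07 and 5.27 in HET (limma adjusted p = 0.3895). Hectd2os, an antisense transcript, was at least 1.24-fold higher, with 4.28 and 4.37 in WT and 4.91 and 5.06 in HET (limma adjusted p = 0.411).

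**Figure D4:**
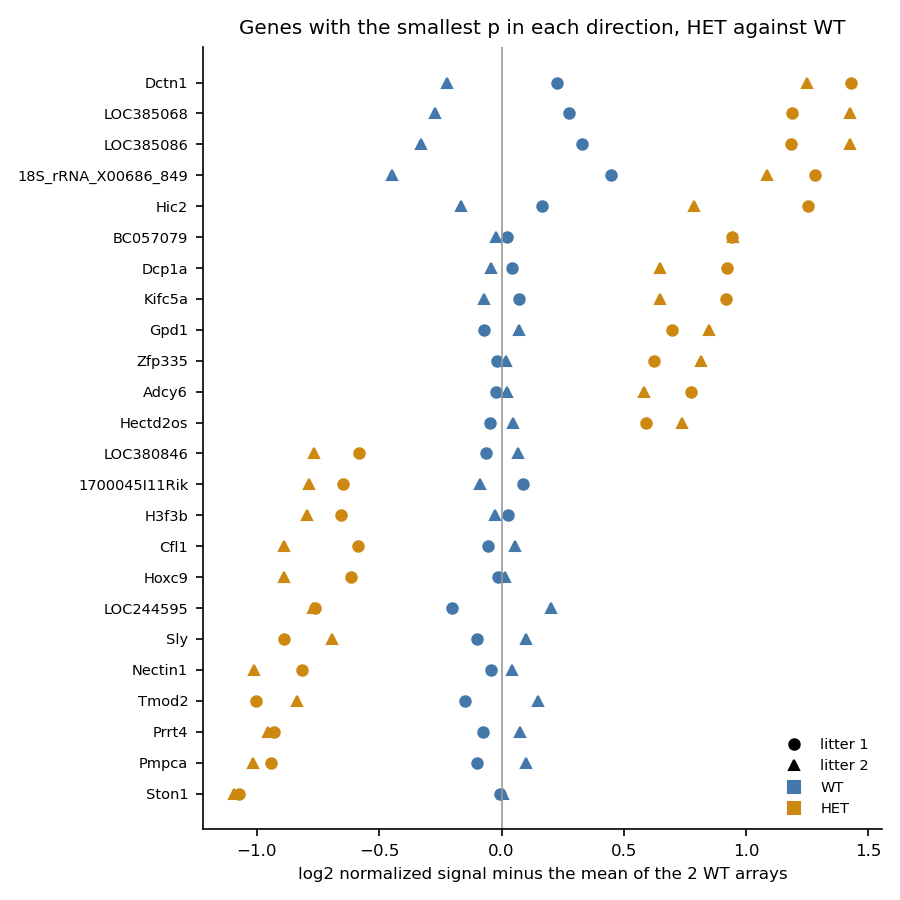
Log2 normalized signal minus the mean of the 2 WT arrays (horizontal axis) for the 12 genes with the smallest p in each direction, with WT in blue, HET in orange, circles for litter 1 and triangles for litter 2. The HET mice lie outside the WT range for every gene shown, as the naming rule requires, and the WT mice lie farthest apart for 18S_rRNA_X00686_849 (13.47 and 12.58).

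Germ cell markers gave list medians close to that of all genes. In whole testis, fewer cells of a type and less RNA per cell cannot be told apart. The spermatogonial list had 16 measured genes with a median of -0.03. At an unadjusted p under 0.05, 3 were higher and 2 lower, against 4.69% and 4.07% of all genes. Kit, the receptor of differentiating spermatogonia, read 7.71 and 7.89 in WT and 8.20 and 8.45 in HET (0.52, limma adjusted p = 0.444). A dimmer Kit probe differed by -0.55, and the mean over both probes by -0.01. Sohlh1, a transcription factor of spermatogonial differentiation, read 7.82 and 7.76 in WT and 8.25 and 8.06 in HET (0.36, limma adjusted p = 0.482). Lhx1, a transcription factor linked to stem cell maintenance, read 6.94 and 6.88 in WT and 6.46 and 5.91 in HET (-0.73, limma adjusted p = 0.434, and -0.45 without the HET array of litter 2). Ret, the receptor for glial cell line-derived neurotrophic factor, had a mean at least 1.04-fold higher in HET, at 4.81 and 4.68. WT was not well above background (limma adjusted p = 0.459). Ddx4, a germ cell RNA helicase, read 9.12 and 9.40 in WT and 8.65 and 8.86 in HET (-0.51, limma adjusted p = 0.459), while its second probe differed by 0.02.

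Meiotic genes differed little. The 21 measured genes of recombination and synapsis had a median of 0.07. At an unadjusted p under 0.05, 2 were higher and 0 lower, against 4.69% and 4.07% of all genes. Mlh3, a crossover mismatch repair protein, read 7.56 and 7.70 in WT and 8.03 and 8.03 in HET (0.39, limma adjusted p = 0.472), but its other 2 probes differed by 0.02 and -0.02, and the mean over probes by 0.13. Mei1 read 4.78 and 5.08 in WT and 5.56 and 5.20 in HET (0.45, limma adjusted p = 0.534), and the difference was 0.27 without the HET array of litter 1 and 0.30 without the WT array of litter 1. The 18 late spermatocyte genes had a median of -0.05, and 0 reached an unadjusted p of 0.05. The 17 piRNA pathway genes, which silence transposons in germ cells, had a median of 0.10, with Tdrd9 (0.37) and Tdrd7 (0.31) higher and Rnf17 (-0.51, and -0.31 without the WT array of litter 2) and Ddx4 lower at that level.

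Among spermatid genes 1 member stood out. Hook1, which links the manchette to the sperm head in mice, read 9.66 and 10.31 in WT, 9.01 and 9.15 in HET, and had a KO mean of 9.15. The difference was -0.90 (95% interval -1.40 to -0.41, limma adjusted p = 0.434). It was -0.58 without the WT array of litter 2 and -1.22 without that of litter 1, and it passed adjustment with the authors' scaled values. A second probe read 8.88 and 9.02 in WT and 7.98 and 8.21 in HET (-0.85), and another, dim probe differed by -0.10. The acrosome and sperm head list as a whole had a median of -0.04 over 34 genes, where KO had -0.33. Of these 34, 24 were below 0 in HET minus WT, as were 6744 of all 13968 genes. Flagellum and energy metabolism genes had a median of -0.03 over 38 genes, with 0 at an unadjusted p under 0.05, where KO had -0.21. Spermatid regulators had a median of -0.02 over 19 genes. Boll, a translation regulator, read 9.05 and 9.12 in WT and 8.85 and 8.67 in HET (-0.33), and Crem, a spermatid transcription factor, read 7.87 and 7.82 in WT and 7.41 and 7.64 in HET (-0.32). Their limma adjusted p-values were 0.508 and 0.534, and the other 3 Crem probes differed by 0.03, -0.39 and 0.26.

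The Sertoli cell list had a median above that of all genes in both litters, and no member passed adjustment. The median over 29 measured genes was 0.14, with 0.14 in litter 1 and 0.15 in litter 2. Both HET arrays were above both WT arrays for 15 of the 29, against 22.0% of all genes. Of the 29 differences, 23 were above 0, as were 7224 of all 13968 genes. At an unadjusted p under 0.05 there were 2 higher and 1 lower, against 4.69% and 4.07% of all genes. Sox8, a relative of Sox9, read 5.20 and 5.03 in WT and 5.57 and 5.87 in HET (0.60, limma adjusted p = 0.436). Espn, an actin-bundling protein of Sertoli cell junctions, read 10.29 and 10.21 in WT and 10.66 and 10.53 in HET (0.35, limma adjusted p = 0.486). Its dimmer probes differed by 0.56 and -0.03. Trf, transferrin, read 7.24 and 7.51 in WT and 6.93 and 6.92 in HET (-0.45, limma adjusted p = 0.454). Receptors and secreted products had smaller differences, with Fshr at 0.25, Amhr2 at 0.24, Inha at 0.25 and Clu at 0.21. The KO median of this list was 0.51, with the WT arrays shared, and the HET median stayed between 0.12 and 0.15 when 1 array was left out but was 0.07 without background correction.

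Leydig cell genes, which make testosterone, had a median of -0.08 over 18 genes, 13 of them below 0, against 6744 of all 13968 genes. The litters differed, at -0.16 and -0.03, and the median was 0.08 without the HET array of litter 1 and -0.25 without that of litter 2, so its direction rests on 1 array. Star, which moves cholesterol into mitochondria, read 5.57 and 5.53 in WT and 4.99 and 5.13 in HET (-0.49, 95% interval -0.78 to -0.19, limma adjusted p = 0.434). Lhcgr, the luteinizing hormone receptor, read 5.79 and 5.75 in WT and 5.39 and 5.51 in HET (-0.32, limma adjusted p = 0.564). The bright markers Cyp17a1 and Insl3 differed by -0.10 and -0.07, with intervals of -0.53 to 0.33 and -0.43 to 0.29. The KO median was 0.41, on the other side of WT.

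Fibroblast and matrix genes went both ways, with a median of 0.01 over 18 genes. At an unadjusted p under 0.05, 3 were higher and 3 lower, against 4.69% and 4.07% of all genes. Pdgfra, a receptor of interstitial cells, read 6.53 and 6.50 in WT and 7.19 and 6.87 in HET (0.52, limma adjusted p = 0.436). Col6a3, a collagen chain, read 7.05 and 6.96 in WT and 6.62 and 6.37 in HET (-0.51, limma adjusted p = 0.437). Lum, the matrix proteoglycan lumican, read 6.17 and 6.34 in WT and 5.79 and 5.76 in HET (-0.48, limma adjusted p = 0.436).

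Markers of other cells that a dissected testis can hold were few or uneven. The 20 macrophage and leukocyte genes had a median of 0.06, with 0.14 in litter 1 and -0.05 in litter 2, and the summed deposited signal of all 24 on the array was 7218 to 8902 on the 4 arrays. The 9 peritubular and smooth muscle genes had a median of 0.03 and the 15 endothelial genes -0.07. Of 20 epididymal genes 5 were measured, all with differences below 0 and a median of -0.27. Defb30, a beta-defensin, read 7.77 and 8.15 in WT and 7.40 and 7.59 in HET (-0.47, limma adjusted p = 0.518), and the difference was -0.27 without the WT array of litter 2. The 7 adipose genes had medians of 0.26 in litter 1 and -0.28 in litter 2. Of 8 red blood cell genes 3 were measured. Hba-a1, an alpha globin with a near-identical copy, read 9.12 and 8.87 in WT and 9.52 and 9.36 in HET (0.45, limma adjusted p = 0.491), whereas its KO minus WT difference was -0.45. Hbb-b1, a beta globin, differed by 0.39 and Alas2, the erythroid enzyme of heme synthesis, by -0.32 (limma adjusted p = 0.537 and 0.810).

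**Figure D5:**
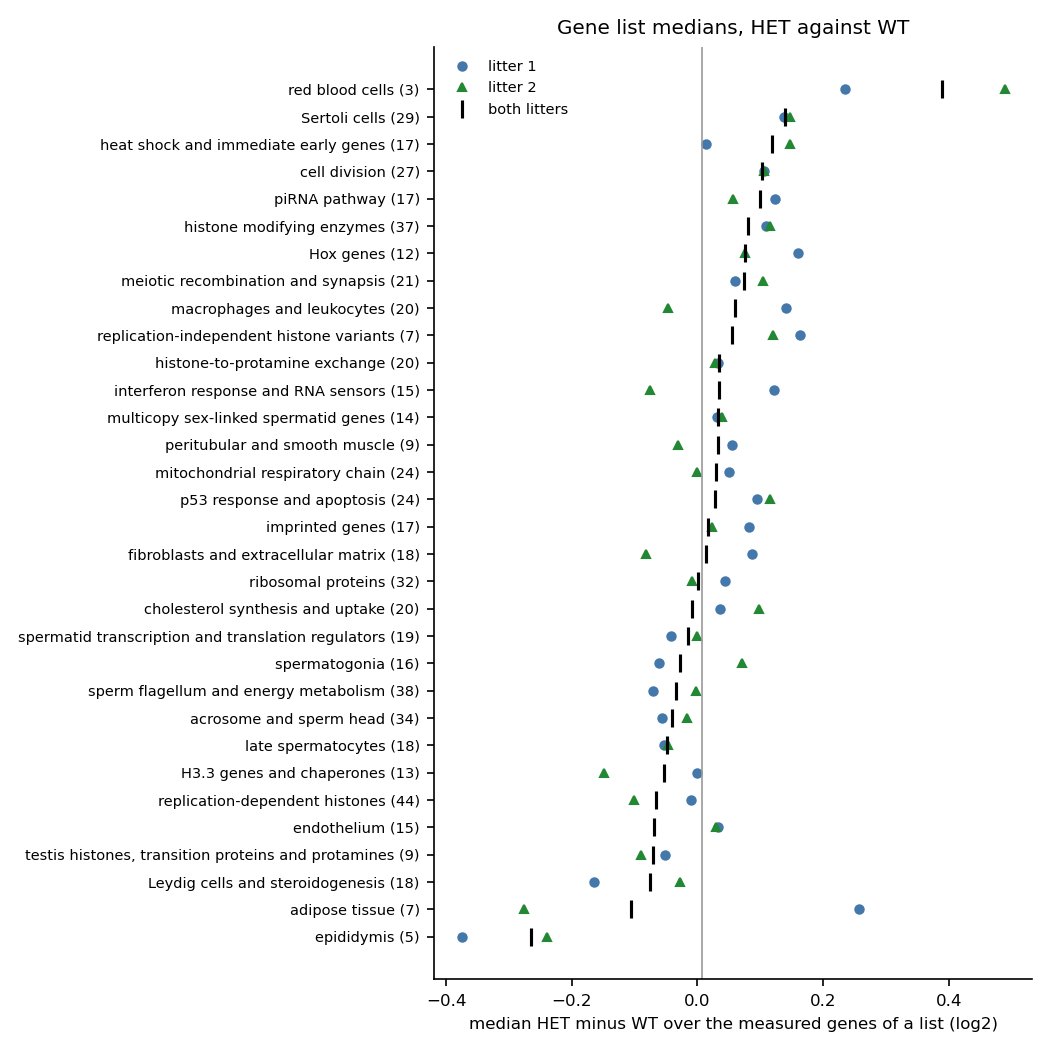
Median HET minus WT difference on the log2 scale (horizontal axis) for 32 gene lists, with the number of measured genes in brackets, for litter 1 (circles), litter 2 (triangles) and both litters (bars); the grey line is the median of all genes (0.01). Most lists lie close to the line, Sertoli cells lie at 0.14 in litter 1 and 0.15 in litter 2, and the red blood cell (3 genes), epididymis (5) and adipose (7) lists have the single-litter points farthest from the line.

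Genes of chromatin modification were higher more often than lower. Of 37 measured enzymes, 18 had both HET arrays above both WT arrays and 3 below, against 22.0% and 18.6% of all genes, and the median was 0.08. At an unadjusted p under 0.05, 4 were higher and 1 lower, against 4.69% and 4.07% of all genes. Setd2, the H3 lysine 36 methyltransferase that adds the last methyl group, read 8.29 and 8.31 in WT and 8.71 and 8.80 in HET (0.46, 95% interval 0.16 to 0.75, limma adjusted p = 0.436), with other probes at -0.09 and 0.15. Nsd1, which dimethylates the same residue, read 6.51 and 6.54 in WT and 6.07 and 5.98 in HET (-0.50, limma adjusted p = 0.454), with a second probe at 0.16. Setd1a and Setd1b, catalytic subunits of H3 lysine 4 methyltransferases, differed by 0.49 and 0.51, the latter 0.34 without the HET array of litter 1. Kat7, an acetyltransferase, differed by 0.39. With 1 array left out the list median was 0.08 to 0.14, and as the mean over probes it was 0.04.

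Cell division genes had a median of 0.10 over 27 genes, with 0.11 in each litter (0.05 over both without background correction). At an unadjusted p under 0.05, 4 were higher and 1 lower, against 4.69% and 4.07% of all genes. Top2a, the mitotic topoisomerase, read 9.09 and 8.87 in WT and 9.36 and 9.39 in HET (0.40, limma adjusted p = 0.471), but its dimmer probe differed by -0.07 and the mean over probes by 0.16. Mki67, Mcm4 and Mcm2, which mark cycling cells and license replication, differed by 0.41, 0.34 and 0.38. Ccnd2, a cyclin of spermatogonia and other cells, read 5.94 and 5.90 in WT and 5.59 and 5.46 in HET (-0.39, limma adjusted p = 0.482), with a second probe at -0.11.

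No member of the stress and signalling lists passed adjustment. The 24 p53 and apoptosis genes had a median of 0.03. At an unadjusted p under 0.05, 4 were higher and 2 lower, against 4.69% and 4.07% of all genes. Bax, a mediator of apoptosis, read 5.87 and 6.19 in WT and 6.42 and 6.77 in HET (0.56, limma adjusted p = 0.452), and Gadd45a differed by -0.37. The 15 interferon response genes had a median of 0.03. Isg15 (deposited as G1p2), a ubiquitin-like protein, was at least 1.31-fold higher in HET at 5.13 and 5.004, with WT not well above background. Ifit2 was at least 1.19-fold lower in HET, which was not well above background. The 17 heat shock and immediate early genes had a median of 0.12 (0.01 in litter 1 and 0.15 in litter 2). Of the 17 differences, 13 were above 0, as were 7224 of all 13968 genes. Fosb, a subunit of the AP-1 transcription factor, differed by 0.33 (0.06 in litter 1 and 0.60 in litter 2), but its second probe by -0.22. Egr1, a zinc finger factor, differed by 0.29. Dusp1, a MAP kinase phosphatase, went the other way (-0.42) and was the 1 member with an unadjusted p under 0.05.

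Imprinted genes had a median of 0.02 over 17 genes, with 3 higher at an unadjusted p under 0.05, against 4.69% of all genes. Dlk1 read 6.26 and 5.73 in WT and 6.67 and 6.33 in HET (0.51, limma adjusted p = 0.482), and its second probe differed by -0.01. The difference was 0.24 without the WT array of litter 2, 0.77 without that of litter 1 and 0.34 without the HET array of litter 1. Peg3 and Grb10 differed by 0.38 and 0.32. The housekeeping lists had medians near 0, at 0.0001 over 32 ribosomal protein genes, 0.03 over 24 respiratory chain genes and -0.01 over 20 genes of cholesterol synthesis and uptake.

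The genes next to H3f3b in the RefSeq gene order were examined too. Of 5 genes on each side, 8 were measured. Galk1, the immediate neighbour on one side, read 8.28 and 8.18 in WT and 8.28 and 8.26 in HET, a difference of 0.04 (95% interval -0.25 to 0.33), whereas KO read 8.94 and 8.87. Unk, the immediate neighbour on the other side, differed by 0.21 (95% interval -0.13 to 0.56). Itgb4, an integrin chain, read 5.11 and 5.48 in WT and 4.87 and 4.99 in HET (-0.36, limma adjusted p = 0.535). The others lay between -0.30 (Smim6) and 0.34 (Sap30bp), with limma adjusted p-values of 0.552 or more.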

How the data were processed

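The deposited table covered 45281 probes on 6 arrays and, per the file headers, gave each an intensity (average over beads) with its detection p-value; per the submitters' processing notes it came from GenomeStudio, and how beads were filtered is not given in the sources used here. The deposited intensity values differed in total between arrays and kept a background level, so they were treated as not normalized. The series matrix, used as an alternative, held the authors' scaled intensity values, which on comparison were the same signals times 1 factor per array.

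Background was corrected with limma 3.58.1 (R 4.3.3; neqc, offset 16, from detection p-values), followed by quantile normalization of all 6 arrays and log2. Probes detected at p under 0.05 on both HET or both WT arrays were kept (19668 probes, 13968 named genes). The limma fit (lmFit, eBayes, two-sided) had genotype as its only term, with 3 residual and 6.22 prior degrees of freedom, and p-values were adjusted by Benjamini-Hochberg. It was tested on simulated data. The number of arrays limits the precision.

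Of 31508 symbols, 13424 were current in RefSeq (GRCm38.p6), 8145 were updated and 113 matched several genes; 9812 stayed as deposited, and 27 probes with date-like symbols were unnamed. A gene is read by its brightest probe over all 6 arrays. A probe detected on neither array of a group gives a lower bound on the fold: the other group's mean against the mean, per array, of the higher of the probe's value and the lowest detected value. This bound allows for background only and takes no account of the spread between mice.

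The labels state that replicate numbers mark litters, so they pair the mice; litter differences correlated between genotypes by 0.09 to 0.174. Named genes were H3f3b, H3f3a, the 12 smallest p in each direction (same sign in both litters, HET outside the WT range), the 4 largest differences in each direction under those conditions with unadjusted p under 0.05, up to 3 smallest p of each of 32 lists, and the 5 genes on each side of H3f3b; others named were chosen after their values were seen. Members and lists were chosen with earlier results of these data known.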

Additional observations from a re-analysis of the deposited data

How the results depend on the processing

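The number of called probes, 0 with the settings reported, was 5 with median scaling, 2 without background correction, 4 with an offset of 50, 17 with the authors' scaled values and 4 with an intensity trend, and 0 to 2 when 1 array was left out (limma). Calls with the authors' scaled values included H3c13, H3c14, Hook1, Dctn1, LOC385086 and Tmod2; Dctn1 was also called with median scaling and LOC385086 with median scaling and an intensity trend. The call without the WT array of litter 1 was Pigt, and those without the HET array of litter 1 were Svs4 and Pate4, both high in the HET mouse of litter 2. Cyclic loess, normalization or a fit on 4 arrays alone, other detection filters and the mean over probes called 0. The authors' scaled values gave 1207 probes higher and 551 lower at an unadjusted p under 0.05, against 938 and 892. H3f3b was below WT under all 20 alternatives, from -0.82 to -0.66, and passed the adjusted threshold with the authors' scaled values (-0.76, limma adjusted p = 0.00203; 0.0565 to 0.675 under the others). With litter as a replicate block, H3f3b stayed at -0.73 (limma adjusted p = 0.283), 0 probes were called (smallest adjusted p 0.0784) and no other call changed. The correlation between litters ranged from 0.12 without a detection filter to 0.28. Of 2347 values of 119 named genes under the alternatives, 6 turned sign: Lep at 0.0163 with the authors' scaled values and 0.2483 without the HET array of litter 2, Sc5d at -0.0036 and Cox7a2 at 0.0034 without the WT array of litter 1, H2ac1 at -0.0304 without the HET array of litter 2, and Kit at -0.0128 as the mean over probes. With 1 array left out, Lep ranged from -0.4939 to 0.2483, Sc5d from -0.0036 to 0.6806 and Cox7a2 from -0.3731 to 0.0034. The causes were not tested. With 2 mice a group and a median 95% half-interval of 0.34 on the log2 scale, smaller differences were not detectable. That interval takes no account of the number of probes tested. Larger differences, such as those of H3f3b (-0.73) and Ston1 (-1.08), were also not called with the settings reported. Probes near background have only bounds.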
